A study of Xenopus laevis with 6 samples.

Results

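Dlx and Msx genes encode homeodomain transcription factors that mark the non-neural ectoderm of the vertebrate embryo. The genes described here are dlx3, dlx5, dlx6, msx1 and msx2 of Xenopus laevis, taken as every probe set whose single annotated symbol is 1 of these names once the ending .L or .S is removed. The endings tell apart the 2 copies, on a long and a short chromosome, that genome duplication left. The rule found 8 of 15491 tested probe sets, from 7 of 7531 gene copies: dlx3.L, dlx3.S, dlx5.L, dlx6.S, msx1.L and msx1.S with 1 probe set each, and msx2.L with 2, whose identifiers share a stem and end in S1_at and A1_at. The copies dlx5.S, dlx6.L and msx2.S were not analysed here. All 8 also passed the alternative filter on dim probe sets.

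RNA came from animal caps, the ectodermal explants cut from the top of the embryo, of mixed sex at gastrula stage 10.5. The 6 arrays fell into 3 groups of 2: caps expressing Mixer, caps expressing Sox17 (Sox17beta in the design text), and caps with no injection. Mixer is a homeodomain protein and Sox17beta an HMG-box protein, both regulators of endoderm formation. No mock-injected group is among the samples, so the act of injection is part of each comparison with uninjected caps. The labels give no dose, embryo number or clutch, so each p-value weighs a difference against the spread between arrays alone, which may be technical.

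Left alone, animal caps form epidermis under BMP signalling, in which BMP ligands act through type I and type II receptors and Smad proteins. Genes of the Dlx and Msx families are known responders to BMP in this tissue, and high BMP activity sets the non-neural ectoderm apart from the neural plate. Dlx proteins mostly act as activators and Msx proteins as repressors of transcription. Dlx genes lie in neighbouring pairs: in the RefSeq annotation of assembly Xenopus_laevis_v10.1, dlx5.L lies next to dlx6.L, dlx6.S next to dlx5.S, and both copies of dlx3 next to a copy of dlx4. Probe sets can read both copies of a duplicated gene, and how far those here separate L from S was not tested.

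Array medians lay between 6.50 and 6.55 on the log2 scale. The highest of 44 controls for bacterial and artificial tag sequences, used here as the ceiling of absent transcripts, lay at 6.62 on Sox17beta replicate 1 and between 5.90 and 6.09 on the other arrays. On that array 48.5% of probe sets exceeded the ceiling, against 57.8% to 60.7% on the others. The median of the 44 controls was lower, between 3.725 and 4.06, so a value under the ceiling need not be background. The injected genes were where the labels put them: mixer.L read 14.07 and 14.06 in Mixer caps, 6.83 and 6.53 in Sox17beta caps and 6.46 and 6.54 in uninjected caps. The probe set of sox17b.1.S ending in _at read 13.11 and 13.90 in Sox17beta caps, 9.63 and 9.33 in Mixer caps and 6.91 and 6.70 in uninjected caps. The explants carried ectodermal markers: of 19 probe sets for epidermal genes, 16 exceeded the ceiling on each uninjected array, while the probe set of cdh1.S and 1 of the 2 of foxi4.2.L did so on no array.

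Both fits of limma described here were made over all tested probe sets, with Benjamini-Hochberg adjustment and a threshold of 0.05, one with group means alone and one with the replicate number as a block. The fit with group means alone was the main one planned. The block, an alternative to it, was added because arrays of the same number varied together. It leaves each difference as it is and changes only its error. Without the block limma called 0 of the 8 probe sets in any comparison, where of all tested probe sets it called 0.0387% in Mixer caps and 0.0194% in Sox17beta caps relative to uninjected caps, and 0.0581% between the injected groups. At an unadjusted p under 0.05 that fit had 7 of the 8 for Mixer, 6 for Sox17beta and 2 for Mixer against Sox17beta, beside 2.87%, 6.26% and 3.97% of all tested probe sets. In what follows, rose and fell refer to the fit with the block, and standard errors (SE) and 95% intervals are from it.

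In Mixer caps, dlx5.L, dlx6.S and msx1.L fell and the S1_at probe set of msx2.L rose. In the blocked fit, 0.775% of all tested probe sets were called lower and 0.536% higher in Mixer caps, beside 3 and 1 of these 8. In Sox17beta caps, both copies of dlx3, dlx5.L, dlx6.S and both copies of msx1 fell and none of the 8 rose, where 3.56% of all probe sets were called lower and 1.88% higher. Between the injected groups, msx1.L and the S1_at probe set of msx2.L differed, both higher in Mixer caps, where 1.56% of all probe sets were called in either direction. The median difference of the 8 was -1.04 for Mixer and -1.45 for Sox17beta, and that of all tested probe sets 0.03 and 0.04.

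**Figure D1:**
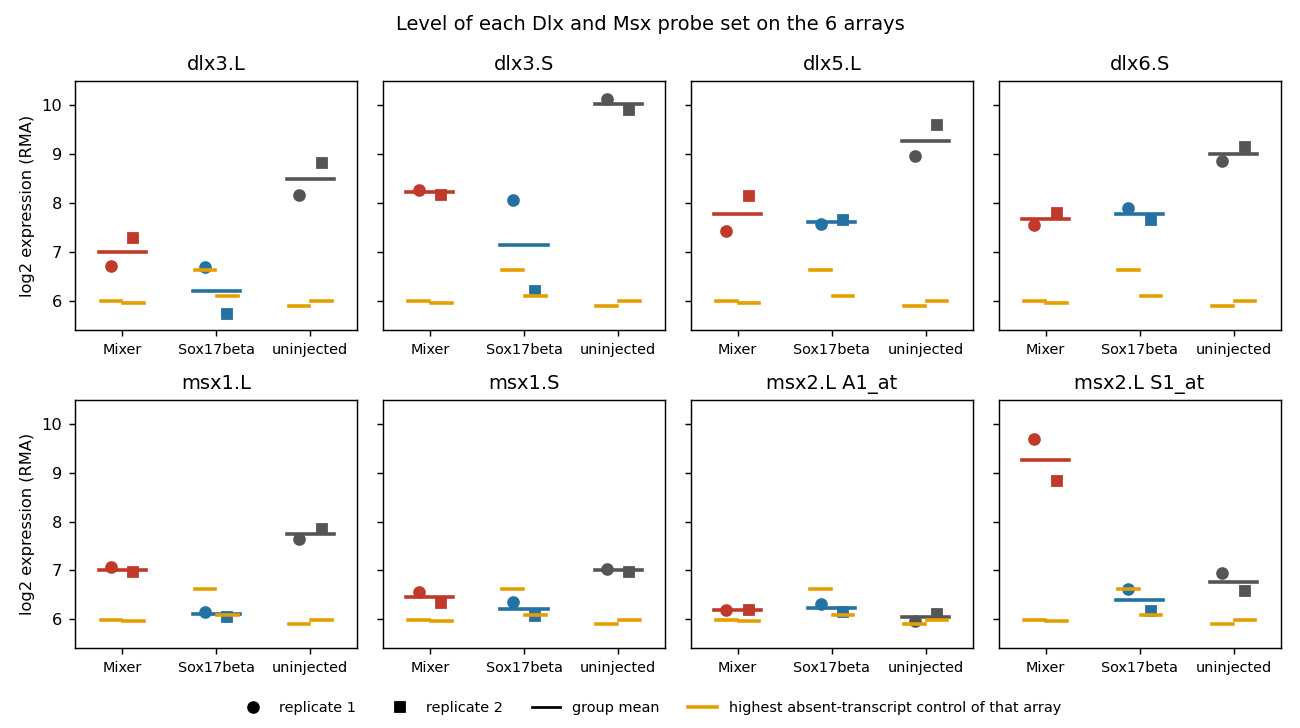
Log2 expression of each of the 8 Dlx and Msx probe sets in Mixer, Sox17beta and uninjected caps, with circles for replicate 1, squares for replicate 2, lines for group means and orange bars for the highest absent-transcript control of each array. The dlx and msx1 probe sets sit lower in both injected groups than in uninjected caps, while msx2.L S1_at stands at 9.70 and 8.84 in Mixer caps and msx2.L A1_at stays between 5.97 and 6.30 on all 6 arrays.

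The short-chromosome copy of dlx3, a gene of epidermal and placodal ectoderm that the mouse also uses in skin and hair, gave the lowest differences of the family. The probe set of dlx3.S read 8.27 and 8.17 in Mixer caps, 8.06 and 6.2 in Sox17beta caps and 10.14 and 9.90 in uninjected caps. Every injected array lay below both uninjected arrays, and Sox17beta replicate 2 lay lowest, 0.11 above its ceiling of absent controls. The difference of dlx3.S was -2.89 ± 0.39 (SE) in Sox17beta caps, 7.41-fold lower (limma adjusted p = 0.00919 with the block, 0.298 without). Only 4 of the tested probe sets had a lower difference.

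In Mixer caps dlx3.S differed by -1.80 ± 0.39 (SE; 95% interval -2.72 to -0.88), which did not pass (limma adjusted p = 0.0958 with the block). Here too only 4 tested probe sets had a lower difference. The differences within a replicate number were -1.87 and -1.73 for Mixer, and -2.08 and -3.70 for Sox17beta. The injected groups thus differed in replicate 2 far more than in replicate 1, by 1.97 against 0.21. That spread enters the common error of the fit, and Mixer minus Sox17beta, at 1.09 (95% interval 0.17 to 2.01), did not pass (adjusted p = 0.275).

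The other copy, dlx3.L, read 6.71 and 7.28 in Mixer caps, 6.68 and 5.72 in Sox17beta caps and 8.16 and 8.83 in uninjected caps. It followed the same order, with Sox17beta replicate 2 lowest and under the ceiling of that array (a difference of -0.37), so its fall there may be understated. It fell by 2.29 in Sox17beta caps on the log2 scale (SE 0.36, 4.91-fold, limma adjusted p = 0.0161 with the block, 0.254 without). In Mixer caps it differed by -1.50 (95% interval -2.37 to -0.64, adjusted p = 0.129 with the block). Within replicate numbers the Sox17beta differences of dlx3.L were -1.48 and -3.11 and the Mixer differences -1.45 and -1.55. The 2 copies of dlx3 thus both showed a larger Sox17beta difference in replicate 2.

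Sox17beta differences were larger in replicate 2 for all 6 dlx and msx1 probe sets. Among the 552 probe sets called lower in Sox17beta caps, 81.2% also had their larger fall in replicate 2, and among the 120 called lower in Mixer caps 38.3% did. Beside this, the sox17b.1.S probe set above read 13.11 in Sox17beta replicate 1 and 13.90 in replicate 2, and replicate 1 had the high absent controls. The mean of 18 hybridization controls was higher in replicate 1 than in replicate 2 by 1.67 in Mixer, 1.22 in Sox17beta and 1.23 in uninjected arrays. Their part in the replicate difference was not tested.

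**Figure D2:**
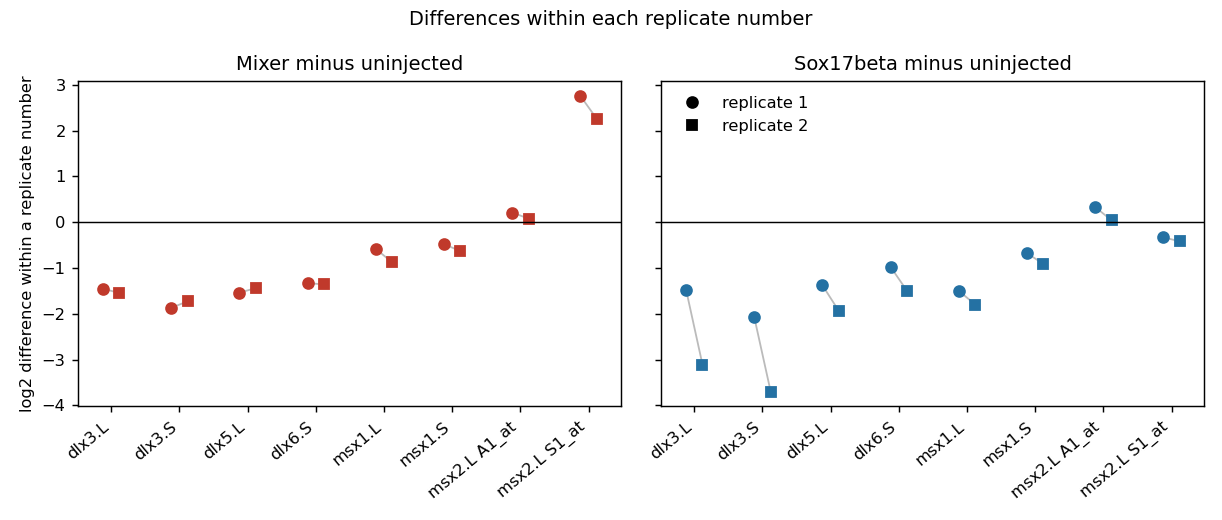
Log2 difference to uninjected caps within replicate 1 (circles) and replicate 2 (squares) for each probe set, for Mixer on the left and Sox17beta on the right. The Mixer pairs, widest for msx2.L S1_at (2.76 and 2.26), lie closer together than the Sox17beta pairs of dlx3.L (-1.48 and -3.11) and dlx3.S (-2.08 and -3.70).

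The copies dlx5.L and dlx6.S, which lie on different chromosomes and are not neighbours, changed by nearly equal amounts in both injected groups. The probe set of dlx5.L, an activator of the anterior neural plate border and of placodes, read 7.42 and 8.15 in Mixer caps, 7.58 and 7.65 in Sox17beta caps and 8.96 and 9.59 in uninjected caps. All 4 injected arrays lay below the uninjected ones, and the 2 injected groups overlapped. It fell by 1.49 in Mixer caps (SE 0.17, 2.81-fold, limma adjusted p = 0.0203 with the block) and by 1.66 in Sox17beta caps (SE 0.17, 3.16-fold, adjusted p = 0.00468 with the block). Without the block the adjusted p was 1 and 0.272.

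The probe set of dlx6.S, whose gene acts with dlx5 in jaw and limb development in the mouse, read 7.54 and 7.79 in Mixer caps, 7.89 and 7.65 in Sox17beta caps and 8.87 and 9.15 in uninjected caps. Again the injected groups overlapped each other and lay below uninjected caps. It fell by 1.34 in Mixer caps (SE 0.15, 2.54-fold, limma adjusted p = 0.0203 with the block, 0.483 without) and by 1.24 in Sox17beta caps (SE 0.15, 2.36-fold, adjusted p = 0.00712 with the block, 0.183 without). Both genes stayed above the ceiling of absent controls on all 6 arrays.

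Mixer minus Sox17beta was 0.17 for dlx5.L (95% interval -0.24 to 0.58, limma adjusted p = 0.698 with the block) and -0.10 for dlx6.S (-0.47 to 0.26, adjusted p = 0.794). Both intervals hold differences in either direction, so the test does not show that the 2 factors act alike on these 2 genes. Over the 4 within-replicate differences to uninjected caps (Mixer and Sox17beta, replicates 1 and 2), dlx5.L and dlx6.S lay at a Euclidean distance of 0.64. The 2 copies of dlx3 lay at 0.96. As small differences bring small distances, these 2 pairs are not ranked. Genes outside the family lay nearer to each, such as slc38a2.L to dlx5.L (0.20) and cfb.L to dlx6.S (0.30).

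The gene msx1 is a direct BMP target that represses transcription, and of its copies only msx1.L separated the injected groups. The probe set of msx1.L read 7.06 and 6.97 in Mixer caps, 6.14 and 6.05 in Sox17beta caps and 7.64 and 7.85 in uninjected caps. The 3 groups did not overlap, and both Sox17beta arrays lay below their own ceiling of absent controls. It fell by 0.73 in Mixer caps (SE 0.12, 1.66-fold, limma adjusted p = 0.0498 with the block) and by 1.65 in Sox17beta caps (SE 0.12, 3.14-fold, adjusted p = 0.00218 with the block). The Mixer call of msx1.L ended when dim probe sets, those under the 25th percentile, were left out (adjusted p = 0.051). Without the block the adjusted p was 0.902 and 0.0923.

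Mixer minus Sox17beta of msx1.L was 0.92 ± 0.12 (SE), with 0.92 in each replicate number (limma adjusted p = 0.0193 with the block, 0.368 without). As its Sox17beta values lay under the ceiling of absent controls, the size of this difference may be understated. They lay above the median of those controls, 4.06 and 3.85 on Sox17beta replicates 1 and 2. The other copy, msx1.S, read 6.55 and 6.34 in Mixer caps, 6.35 and 6.06 in Sox17beta caps and 7.03 and 6.97 in uninjected caps. Both injected groups lay below uninjected caps and overlapped each other, and both Sox17beta arrays again lay below their ceilings. It fell by 0.80 in Sox17beta caps (SE 0.11, 1.74-fold, adjusted p = 0.011 with the block) and differed by -0.56 in Mixer caps (95% interval -0.82 to -0.29, adjusted p = 0.0833 with the block).

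Of the family, msx2 alone had a probe set that rose, and its 2 probe sets disagreed. The msx2.L probe set ending S1_at read 9.70 and 8.84 in Mixer caps, 6.61 and 6.16 in Sox17beta caps and 6.94 and 6.58 in uninjected caps. Both Mixer arrays lay far above the other 4, and the Sox17beta and uninjected groups overlapped. It rose by 2.51 ± 0.15 (SE) in Mixer caps, 5.7-fold (limma adjusted p = 0.00124 with the block, 0.483 without), and 15 tested probe sets had a higher difference. In Sox17beta caps it differed by -0.38 (95% interval -0.72 to -0.03, adjusted p = 0.238 with the block). Mixer minus Sox17beta was 2.88, 7.39-fold (adjusted p = 0.000471 with the block, 0.219 without). As its Sox17beta level is at the ceiling (-0.01 and 0.07 from it), the size of this difference may be understated.

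The msx2.L probe set ending A1_at read 6.18 and 6.18 in Mixer caps, 6.30 and 6.14 in Sox17beta caps and 5.97 and 6.1 in uninjected caps. It stayed within 0.33 of its ceilings on every array, from -0.32 to 0.22. Its differences of 0.14 for Mixer (95% interval -0.14 to 0.43, limma adjusted p = 0.736 with the block) and 0.18 for Sox17beta (-0.10 to 0.47, adjusted p = 0.467) did not pass. The platform's table gives both probe sets to the same gene, so the opposite direction of msx2 rests on 1 of its 2 probe sets. A probe set near the ceiling may carry little information on its gene, and which of the 2 reads msx2 RNA was not tested.

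**Figure D3:**
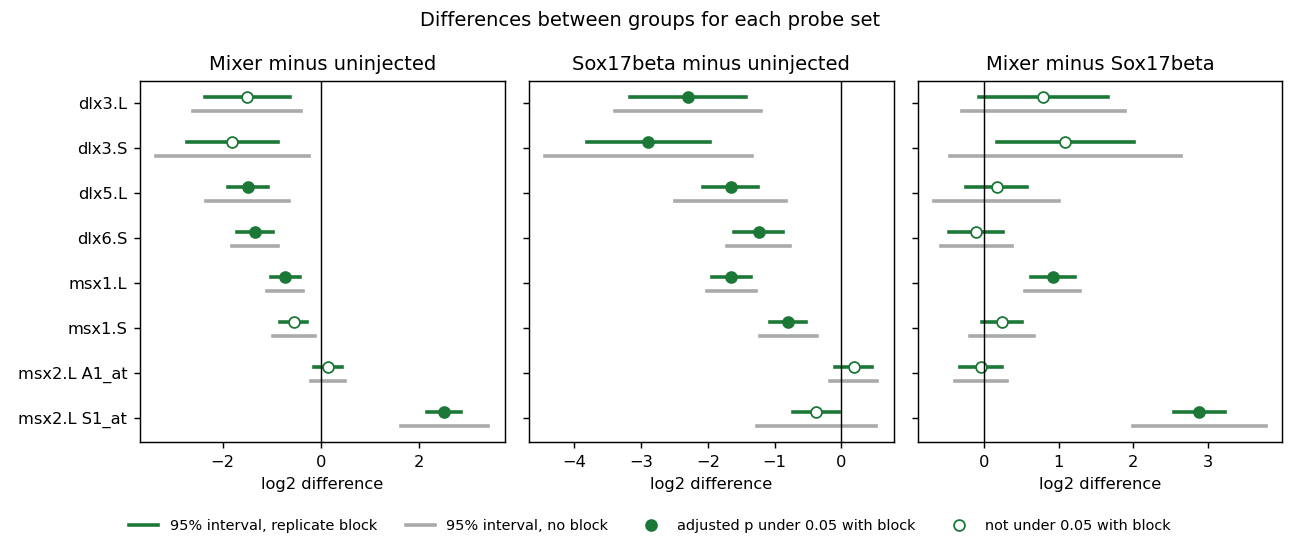
Log2 differences of the 8 probe sets for Mixer minus uninjected, Sox17beta minus uninjected and Mixer minus Sox17beta, with 95% intervals from the fit with the replicate block (green) and without it (grey). Filled points mark an adjusted p under 0.05 with the block: 3 lower and 1 higher in Mixer caps, 6 lower in Sox17beta caps, and 2 higher in Mixer than in Sox17beta caps.

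By whether groups overlapped, 6 of the 8 probe sets lay lower and 2 higher in Mixer caps than in uninjected caps, while 22.1% of all tested probe sets had groups apart in either direction. The 2 higher were both probe sets of msx2.L, and the A1_at one, near its ceilings, differed by 0.145 only. In Sox17beta caps 6 lay lower and 1 higher, beside 30.4% of all probe sets in either direction. The 1 higher was again msx2.L A1_at, at 0.185 (limma adjusted p = 0.467 with the block), while msx2.L S1_at overlapped. Between Mixer and Sox17beta caps 4 lay higher in Mixer caps and the other 4 overlapped, beside 24.5%. Each of these shares counts both directions together, so none is a share for 1 direction. The comparisons with uninjected caps share their uninjected arrays, so a like direction in both is not independent.

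Most calls of the blocked fit were lost when 1 array was left out. Over all tested probe sets, too, hardly any Mixer calls were left, and Sox17beta calls almost only without Sox17beta replicate 1. Without a Sox17beta array, the differences of Mixer to uninjected caps stayed as they were, and their calls were still lost. A lost call thus does not show reliance on the array left out. With 1 array left out at a time, where the lone array of a group is taken to vary like the others, the blocked fit of limma called none of the 8 in Mixer caps. In Sox17beta caps it called dlx3.L, dlx3.S, dlx5.L, dlx6.S and msx1.L without Sox17beta replicate 1 (adjusted p from 0.0184 to 0.03), and none of the 8 without any other array. Between the injected groups msx1.L lost its call in each omission, and msx2.L S1_at kept it in 3 of 6, without Sox17beta replicate 1 (adjusted p = 0.0437) and without either uninjected array (0.0456 each). Without Sox17beta replicate 1, both copies of dlx3 were also called higher in Mixer than in Sox17beta caps, dlx3.L by 1.58 and dlx3.S by 1.94 (0.0411 each). The probe sets called with all arrays kept their direction in each of these fits.

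**Figure D4:**
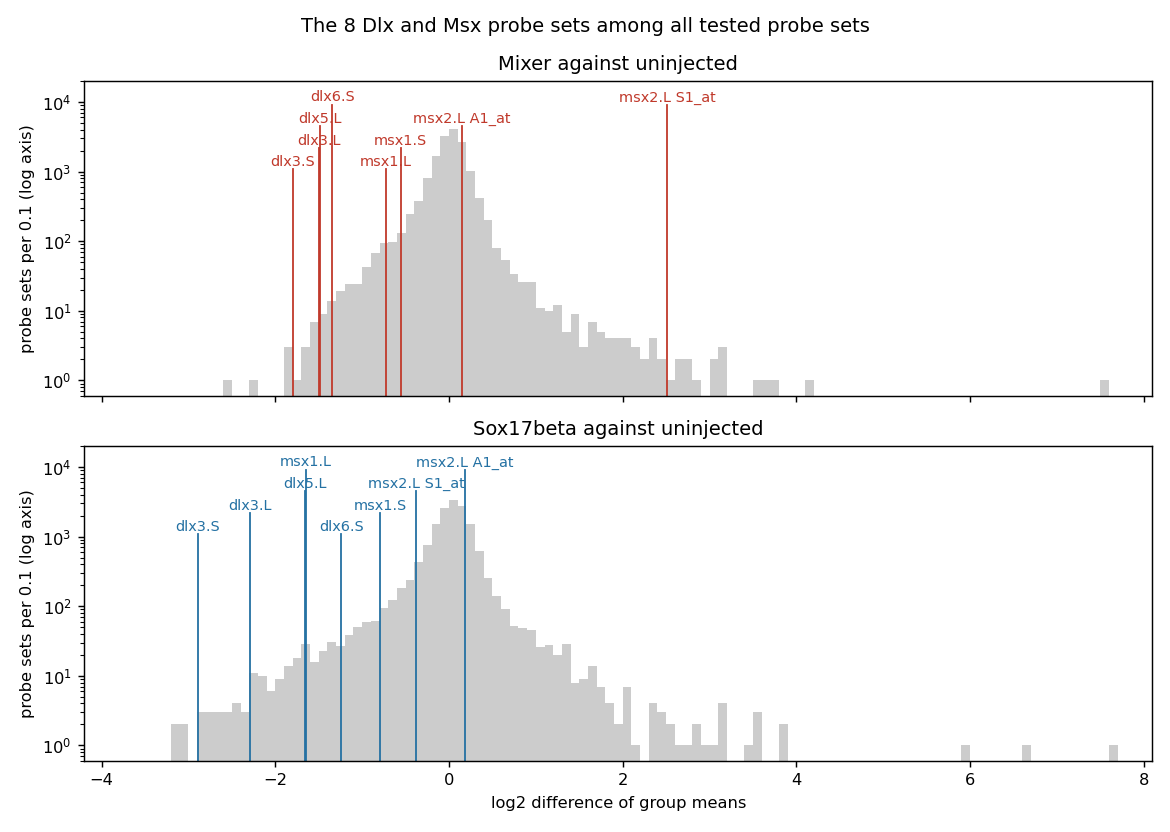
Number of tested probe sets per 0.1 of log2 difference to uninjected caps (log axis), with vertical lines at the 8 Dlx and Msx probe sets, for Mixer above and Sox17beta below. The dlx probe sets lie in the lower tail of both distributions, and msx2.L S1_at lies in the upper tail for Mixer (2.51) and below 0 for Sox17beta (-0.38).

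Another Dlx gene with annotated probe sets, dlx2, a forebrain and crest gene in the mouse, was near or under the ceiling of absent controls. The probe set of dlx2.L read 5.44 and 5.48 in Mixer caps, 5.91 and 5.63 in Sox17beta caps and 5.58 and 6.03 in uninjected caps, and its differences were -0.35 and -0.04 for Mixer and Sox17beta. That of dlx2.S differed by -0.73 and -0.89. None of these passed with the block in limma (adjusted p from 0.148 to 0.942), and 1 of the 2 had an unadjusted p under 0.05 in each comparison with uninjected caps.

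The BMP pathway was described by 4 lists counted by probe set, with the family's own genes left out. Several probe sets can belong to 1 gene. Of all tested probe sets, as given above, 0.775% were called lower and 0.536% higher in Mixer caps, and 3.56% and 1.88% in Sox17beta caps. Some genes stand in more than 1 list: szl, bambi and smad7 are both components and targets, and tfap2a and gata2 stand among both the targets and the epidermal genes that follow. Of 9 probe sets for BMP ligands, 0 passed in Mixer caps with the block in limma (5 had an unadjusted p under 0.05, as did 1885 of all 15491). In Sox17beta caps 2 fell, those of bmp7.2.L (-1.84, adjusted p = 0.0107) and bmp4.S (-1.20, 0.0376), both ligands that maintain epidermis. That of bmp4.S exceeded the ceiling of absent controls on 3 arrays only. Both its Sox17beta values, 5.88 and 5.57, lay under their ceilings. The list's median was -0.04 for Mixer and -0.16 for Sox17beta. The smallest p in Mixer caps was that of bmp7.2.L, at -1.13 (-1.17 and -1.09 in replicates 1 and 2, adjusted p = 0.116). Next came a probe set of the ligand admp.S, at 1.80 (2.78 and 0.81 in replicates 1 and 2, adjusted p = 0.119). It exceeded the ceiling of absent controls on 1 array only, and the other probe set of admp.S differed by 0.52 (adjusted p = 0.246).

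Of 22 probe sets for receptors and Smads, 3 fell in Mixer caps and 7 in Sox17beta caps, and none rose in either. In Mixer caps they were a pair for the inhibitory Smad gene smad7.L (-0.76 and -0.71, both with limma adjusted p = 0.0401 with the block) and that of the BMP co-receptor rgma.L (-0.67, 0.0416). In Sox17beta caps all 7 were probe sets of smad7.L (the lowest at -0.98, 0.007) or of the type I receptor gene bmpr1a. Among the latter were bmpr1a.L at -0.92 (0.00967) and bmpr1a.S at -0.74 (0.0139). The medians were -0.13 for Mixer and -0.37 for Sox17beta.

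Of 20 probe sets for secreted and membrane modulators, 1 rose and 1 fell in Mixer caps. They were cer1.S, a secreted antagonist of BMP, Nodal and Wnt (1.49, limma adjusted p = 0.0189 with the block), and bambi.L, a decoy receptor (-1.35, 0.0218). In Sox17beta caps 1 rose and 6 fell. The riser was fst.L, which encodes the activin and BMP antagonist follistatin (1.43, 0.00352). Those that fell included szl.S and szl.L, copies of a secreted inhibitor of chordin-cleaving proteases (-2.84 and -2.73), bambi.L (-2.19, 0.00218), bambi.S (-1.37, 0.0129) and twsg1.S, a BMP-binding protein gene (-1.11, 0.0279). The probe sets of cer1.S and fst.L each exceeded the ceiling of absent controls on 1 array only. Those of szl.S and szl.L lay under it on both Sox17beta arrays. The list's median was 0.00 for Mixer and 0.16 for Sox17beta, so the members that fell stood apart from its middle.

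Targets of BMP signalling, as dlx and msx1 are, made up the next list. Of 24 probe sets, 3 fell and 1 rose in Mixer caps and 19 fell and 0 rose in Sox17beta caps with the block, and 22 had an unadjusted p under 0.05 for Sox17beta, as did 18.2% of all tested probe sets. The medians were -0.46 and -1.03. In Sox17beta caps the epidermal factor gene tfap2a.L fell by 2.12 and gata2.L, a GATA factor gene of ventral ectoderm, by 1.94 and 1.87 in its 2 probe sets (limma adjusted p from 0.00252 to 0.00539). Like msx2.L S1_at, the homeobox repressor gene ventx3.2.S rose in Mixer caps (1.31, 0.0223) and was higher there than in Sox17beta caps (1.85, 0.00539). Of the list, 7 probe sets were called higher in Mixer than in Sox17beta caps, as was msx1.L. Among them were gata2.L (1.35 and 1.31), ventx2.1.S (1.32), 2 probe sets of id3 (1.07 and 0.85) and ventx1.1.L (1.03). Their limma adjusted p ran from 0.00834 to 0.0478 with the block. The other probe set of ventx1.1.L, above the ceiling of absent controls on all 6 arrays, differed by 0.185 only (adjusted p = 0.504).

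Of 32 probe sets for epidermal ectoderm genes, 1 fell and 1 rose in Mixer caps and 17 fell and 0 rose in Sox17beta caps, where 23 had an unadjusted p under 0.05 in limma with the block, against the same 18.2% of all. The medians were -0.45 and -1.21. The Mixer fall was that of foxi4.2.L, a forkhead gene of ectoderm (-1.30, adjusted p = 0.0441, in the probe set above the absent controls on all 6 arrays), and the rise that of itln1.L, a mucus lectin gene (3.65, 0.00823). The largest Sox17beta falls were those of the keratin genes krt12.5.S (-3.19, 0.0196), krt12.4.S (-3.11, 0.0481) and krt70.L (-3.005, 0.028). Each of these exceeded the ceiling of absent controls on 3 arrays only, and lay under it on both Sox17beta arrays. Their falls were larger in replicate 2, as for krt12.4.S with -1.74 and -4.48. In replicates 1 and 2 the list's Sox17beta medians were -0.69 and -1.60, as the 8 Dlx and Msx probe sets had -1.18 and -1.65.

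The counts in these lists were cut in the same omissions, as were those over all tested probe sets, given further below. For Mixer, leaving out any 1 array left 0 calls in each of these 5 lists. For Sox17beta, leaving out Sox17beta replicate 1 left 2 falls among the ligands, 3 among receptors and Smads, 5 falls and 1 rise among modulators, 13 falls among targets and 16 among epidermal genes. Leaving out any other array left 0 in all 5.

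The levels of tissue markers were as follows, with no test. Among the 19 ectodermal marker probe sets, that of itln1.L was far higher in Mixer caps (8.76 and 10.06) than in uninjected caps (5.63 and 5.89). The mean log2 value of all 19, itln1.L included, was 7.82 and 8.74 in Mixer caps, 7.27 and 6.89 in Sox17beta caps and 8.53 and 9.20 in uninjected caps. That of 12 endodermal ones was 7.06 and 7.70, 6.86 and 7.09, and 5.09 and 5.19 in the same groups, with 10 and 10, 4 and 6, and 2 and 3 of them above the ceiling, while gata6.S and hhex.L exceeded it on no array. These include the injected gene: the other 10, without sox17b.1, averaged 6.58 and 7.37 in Mixer caps, 5.67 and 5.81 in Sox17beta caps and 4.90 and 5.05 in uninjected caps. For 7 mesodermal ones it was 6.77 and 6.46 in Mixer caps, 6.48 and 5.80 in Sox17beta caps and 5.90 and 5.44 in uninjected caps, with myod1.L, myod1.S, myf5.L and tbxt.S above it on no array. For 10 neural ones it was 7.34 and 6.86 in Mixer caps, 6.92 and 6.72 in Sox17beta caps and 7.42 and 6.96 in uninjected caps, with 6 of 10 above the ceiling on every array. Their part in the falls of dlx and msx1 was not tested. In whole explants, fewer ectodermal cells and less RNA per cell cannot be told apart.

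**Figure D5:**
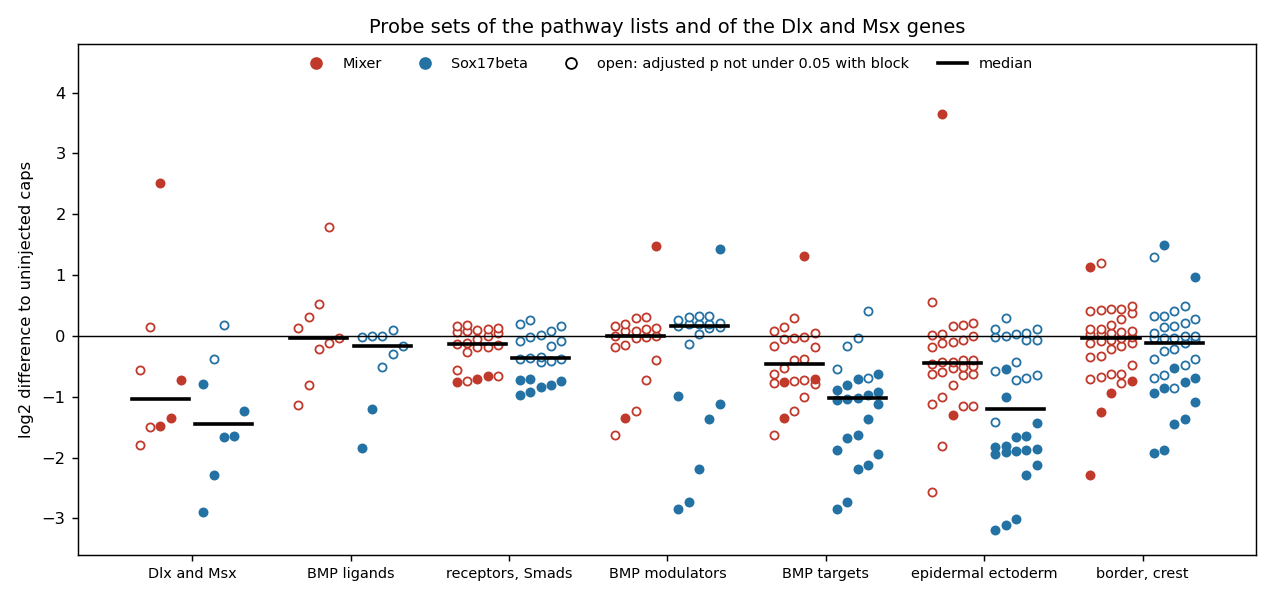
Log2 difference to uninjected caps of each probe set of the Dlx and Msx genes and of 6 lists, for Mixer (red) and Sox17beta (blue), filled where the adjusted p with the block is under 0.05, with black lines for medians. The Sox17beta medians of the BMP targets (-1.03) and the epidermal ectoderm genes (-1.21) lie below 0, as does that of the 8 Dlx and Msx probe sets (-1.45), while the BMP ligands lie near 0 (-0.16).

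Over the 4 within-replicate differences to uninjected caps, the named probe sets most like each member were sought among 9296 others by Euclidean distance. Nearest to dlx3.S was szl.L at 0.44, with -1.61 and -1.65 for Mixer and -2.09 and -3.36 for Sox17beta. It was followed by ptafr.L, the platelet-activating factor receptor gene, at 0.62 and hs3st1.L, a heparan sulfate sulfotransferase gene, at 0.66. For dlx3.L the nearest were arg1.L, the arginase gene (0.36), ptafr.L (0.39) and hs3st1.L (0.42), so 2 of the 3 nearest were shared by the copies. All of these had larger Sox17beta differences in replicate 2 than in replicate 1.

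Nearest to dlx5.L were slc38a2.L, an amino acid transporter gene (0.20), foxi4.2.L (0.31) and cnn2.L, a calponin gene (0.32). For dlx6.S they were cfb.L, the complement factor B gene (0.30), sat1.L, a polyamine acetyltransferase gene (0.31), and tuba1cl.3.L (0.42). For msx1.L they were sbk1l.L (0.34) and both copies of midn (0.40 each), and for msx1.S tcf7l1.S, a repressor gene of the Wnt pathway (0.09), guk1.S (0.09) and znf268.L (0.11). For msx2.L S1_at the nearest was pnhd.L, which encodes the secreted protein Pinhead, at 0.60, with 2.80 and 1.97 for Mixer and 0.11 and -0.14 for Sox17beta. The next was XB5871033.L at 1.01, with 2.28 and 2.06 for Mixer, and then btbd6.L at 1.15. For msx2.L A1_at, which hardly moved, the nearest were cadm3.S, hspb8.L and xcxcra, all at 0.04 to 0.05. Small differences bring small distances, so distances cannot be ranked between members.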

How the data were processed

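Per the submitters' processing notes, the authors made the deposited log2 values with RMA, which corrects background, normalizes arrays and summarises the probes of a set. Neither its version nor whether all 6 arrays were summarised at once is stated. The values, from 2.24 to 14.07, were used as deposited. Of 15611 probe sets, 120 controls were left out. Of 15491 tested, 9304 had 1 symbol in the platform's annotation table, 195 several and 5992 none; 9227 matched a RefSeq gene identifier, which updated 2 symbols. Probe sets with several symbols or none are unnamed.

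The members and lists were chosen with earlier results of these data known. Groups were compared with limma 3.58.1 (lmFit, eBayes; R 4.3.3) over all probe sets and 6 arrays, two-sided, with Benjamini-Hochberg adjustment per comparison, and tested on simulated data. The residual degrees of freedom were 3, and 2 once replicate number entered as a block. Deviations from group means correlated across probe sets between same-numbered arrays at 0.867 (Mixer, uninjected), 0.732 (Sox17beta, uninjected) and 0.776 (Mixer, Sox17beta). Of 6 arrays, 6 correlated best with their own number, so the fit with the block took the numbers in the labels as pairs. The main fit as planned had no block, and the calls given here rest on the block, an alternative to it. With 2 arrays per group, precision is limited by their number. Named were every member, the injected genes and the 3 nearest patterns per member. From each list up to 6 called probe sets were named by size, otherwise the 2 with the smallest p. Described beside them were dlx2 levels, the other probe sets of admp.S and ventx1.1.L, the copy foxd3.L and counts of markers. Alternatives were quantile normalization, median centring, a 25th percentile filter, a variance trend, fewer arrays and the block. Figures used matplotlib 3.10.9 (Python 3.11.15).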

Additional observations from a re-analysis of the deposited data

Results flagged for a closer look

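With the block, a test of Mixer against Sox17beta itself called 2 of the 8 probe sets. Of all tested probe sets it called 1.56% in either direction. The main fit, without the block, called 0 of the 8. As given above, msx1.L lost its call whenever 1 array was left out, and msx2.L S1_at in some omissions. The members were chosen with earlier results of these data known, so the direction of msx2 is no independent finding. For msx2.L S1_at Mixer minus Sox17beta was 2.88 (limma adjusted p = 0.000471 with the replicate block, 0.219 without), and the differences to uninjected caps ran opposite ways in both replicate numbers, at 2.76 and 2.26 for Mixer and -0.33 and -0.42 for Sox17beta. The Sox17beta side alone did not pass. For msx1.L Mixer minus Sox17beta was 0.92 (adjusted p = 0.0193 with the block, 0.368 without), with lower values than in uninjected caps in both injected groups.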

How the results depend on the processing

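Counts of called probe sets stand here in the order Mixer, Sox17beta (each relative to uninjected caps) and Mixer relative to Sox17beta. They were 203, 844 and 241 with the replicate block, where the fit without it had 6, 3 and 9. For members the block turned calls that were absent into the calls given above. It could change no direction, as it leaves each difference as it is. Without the block, the arrays of the compared groups alone gave 1, 0 and 1, quantile normalization 5 for Sox17beta, and a variance trend 13 for Sox17beta and 14 for Mixer against Sox17beta. Alternatives chosen after seeing the data joined the block with quantile normalization (281, 926, 322), with the filter (178, 749, 197) and with the trend (210, 847, 267). Leaving out 1 array gave 0 to 1, 0 to 5 and 1 without the block, and 0 to 2, 0 to 582 (without Sox17beta replicate 1) and 0 to 136 with it. The cause of these changes was not tested, and the fits with 1 array left out also rest on fewer arrays. Mixer minus Sox17beta turned sign in some of these omissions for 3 probe sets that were not called: dlx5.L (-0.20 to 0.53, with the block -0.14 to 0.47, among them -0.02), dlx6.S (-0.23 to 0.02, with the block -0.36 to 0.15, among them 0.01) and msx2.L A1_at (-0.12 to 0.04, with the block -0.15 to 0.0725). The rise of msx2.L S1_at in Mixer caps lay between 2.28 and 2.74 in the blocked omissions (adjusted p from 0.0735 to 0.291). Levels at the absent-control ceiling limit what can be said of msx1 in Sox17beta caps and of msx2.L A1_at.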

Other observations

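Of 37 probe sets for neural plate border and crest genes, 4 fell and 1 rose in Mixer caps and 10 fell and 2 rose in Sox17beta caps, in limma with the replicate block. The 37 come from 15 gene names, so some genes count more than once. Beside this and the lists below, 0.775% of all tested probe sets were called lower and 0.536% higher in Mixer caps. In Sox17beta caps the shares were 3.56% and 1.88%. The border gene hes4.L fell in both groups, by 1.25 (adjusted p = 0.0302) and 1.87 (0.00384). So did kctd15.L, an inhibitor of crest formation, with differences of -2.28 (0.0262) and -1.46 (0.039), and 1 probe set of prdm1.S, with -0.94 (0.0322) and -1.36 (0.0044). The stem-cell and crest factor gene foxd3.S rose in Sox17beta caps (1.50, 0.00712) and was lower in Mixer than in Sox17beta caps (-1.42, 0.0182). Its probe set exceeded the ceiling of absent controls on no array, and the copy foxd3.L differed by 0.325 in Sox17beta caps (limma adjusted p = 0.177). The list's median was -0.04 for Mixer and -0.12 for Sox17beta.

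Of 29 probe sets for placode, cement gland and anterior genes, 1 rose and 1 fell in Mixer caps and 5 rose and 3 fell in Sox17beta caps. The homeobox gene irx4.L rose in Sox17beta caps by 3.86 (adjusted p = 0.000695) and the anterior homeobox gene otx2.L by 3.13 (0.00297), while the cement gland gene ag1.L fell by 2.84 (0.00462). Of 28 for neural plate genes, 1 rose and 2 fell in Mixer caps and 4 rose and 6 fell in Sox17beta caps. The gene otx2 stands in both of these lists, so their counts are not independent. The riser in Mixer caps was the same otx2.L probe set in each, and otx2 probe sets were among the Sox17beta risers of both. In Mixer caps that otx2.L probe set read 5.80 and 5.22, under the ceilings of 5.99 and 5.96. The neural gene sox3.S was higher in Mixer than in Sox17beta caps, by 1.54 (0.0051). Of 36 for mesendoderm genes, 12 rose in Mixer caps and 10 in Sox17beta caps and none fell, with medians of 0.57 and 0.26. This list holds the injected genes: without mixer and sox17b.1, left out after seeing the data, 8 of 32 rose in each group and none fell, with medians of 0.38 and 0.26. Those that rose included gata4.S, a GATA factor gene of endoderm, at 3.73 (0.0003) and 2.81 (0.000885). The copy gata4.L rose in Mixer caps by 3.585 (limma adjusted p = 0.000184) and was higher there than in Sox17beta caps by 3.315 (0.000157). It read 5.53 and 5.30 in Sox17beta caps and 5.20 and 5.09 in uninjected caps.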
